A study of Homo sapiens with 8 samples.

Results

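Glycosphingolipids are membrane lipids made of ceramide with a sugar chain, and this account covers 9 genes of their synthesis in the human colorectal cancer line HCT-116, out of 20030 rows in each deposited table. *UGCG* was chosen on its measured FPKM, which was below the control in every knockdown, and the other 8 genes were added for their place beside it in the pathway. RNA had been sequenced in 8 libraries after siRNA transfection, to look for genes that depend on both HHEX and the YAP-TEAD complex. The labels name no other treatment and no genetic change of the cells. The groups were the control siRNA (siNC, n = 2), siRNAs against *HHEX*, a homeobox transcription factor (siHHEX, n = 3), siRNAs against *YAP1* and *WWTR1*, the gene of TAZ (siYAP/TAZ, n = 2), and siRNAs that together target *TEAD1*, *TEAD2*, *TEAD3* and *TEAD4* (siTEAD1/2/3/4, n = 1). The methods number the siRNAs of siHHEX and siYAP/TAZ as the labels number the libraries, so each replicate within a knockdown used another siRNA. The siHHEX 3 library was entered in the deposit apart from the others, so its siRNA and a possible batch cannot be told apart. Nothing in the labels says that replicates were separate cultures, and p-values therefore measure only the spread between these libraries.

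Ceramide stands at a branch point. *CERS2* encodes a ceramide synthase for very long acyl chains, *SGMS1* and *SGMS2* encode the synthases that turn ceramide into sphingomyelin, and *UGCG* encodes glucosylceramide synthase, which puts glucose on ceramide and opens the glycosphingolipid path. *B4GALT5* and *B4GALT6* then add galactose to give lactosylceramide. From lactosylceramide, *ST3GAL5* leads to GM3 and the gangliosides, *A4GALT* to the globo-series lipid Gb3, and *B3GNT5* to the lacto- and neolacto-series.

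YAP and TAZ do not bind DNA themselves and act at promoters and enhancers through TEAD factors, which recognise GGAATG, often near AP-1 sites. For AP-1 the loose word TGANTCA was searched, with any base at N, so a match need not be an AP-1 site. The 250 bases before the RefSeq start (GRCh38.p14) are shown for the 3 genes on which the results turn most, *UGCG* because it was lower in every knockdown library, *SGMS2* because it had the next largest decrease in siHHEX, and *B4GALT5* because it was low in the siTEAD1/2/3/4 library. They are written 5′ to 3′ on the strand of the gene, with GGAATG or TGANTCA, on either strand, in capitals. They lie at chr9:111896564-111896813 (+) for *UGCG*, chr4:107824313-107824562 (+) for *SGMS2* and chr20:49713879-49714128 (-) for *B4GALT5*.
UGCG: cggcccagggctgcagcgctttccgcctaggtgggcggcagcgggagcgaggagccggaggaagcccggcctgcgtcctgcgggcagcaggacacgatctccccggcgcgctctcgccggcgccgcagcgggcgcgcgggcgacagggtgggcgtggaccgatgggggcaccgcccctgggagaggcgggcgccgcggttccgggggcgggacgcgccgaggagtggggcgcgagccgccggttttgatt
SGMS2: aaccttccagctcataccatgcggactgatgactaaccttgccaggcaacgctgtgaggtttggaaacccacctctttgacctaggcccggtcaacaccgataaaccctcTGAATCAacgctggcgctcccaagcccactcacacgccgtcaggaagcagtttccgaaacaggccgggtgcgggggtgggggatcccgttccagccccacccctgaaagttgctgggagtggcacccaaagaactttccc
B4GALT5: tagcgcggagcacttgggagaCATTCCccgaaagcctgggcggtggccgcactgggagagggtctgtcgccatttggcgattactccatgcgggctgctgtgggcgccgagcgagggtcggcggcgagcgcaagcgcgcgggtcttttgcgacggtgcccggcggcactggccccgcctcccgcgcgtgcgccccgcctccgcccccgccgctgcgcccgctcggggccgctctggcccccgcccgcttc
In windows of 300 bases, 250 before and 50 after the start, 14.0% of 27305 RefSeq promoters held GGAATG and 7.76% held TGANTCA on either strand. Of the 7 genes with an entry, 1 held GGAATG, at -229 in *B4GALT5*, where it reads CATTCC. Another 1 held TGANTCA, at -140 in *SGMS2*, where it reads TGAATCA. The *UGCG* window held neither word. These matches describe letters in a short window and say nothing of binding there or elsewhere.

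The knockdowns were checked first in the targeted genes. *HHEX* was at 8.60 and 9.06 FPKM (fragments scaled by the length of the gene and the total of the library) in siNC and at 3.25, 3.54 and 1.85 FPKM in siHHEX 1, 2 and 3. This was a log2 fold change of -1.37 on the log2(FPKM + 1) scale (adjusted p = 0.0054). In siYAP/TAZ, *WWTR1* fell by 1.10 on that scale (adjusted p = 0.0156), while *YAP1* was at 6.90 and 8.39 FPKM against 20.2 and 19.7 FPKM in siNC, with a log2 fold change of -1.28 that missed the threshold (adjusted p = 0.0681). *YAP1* was also at 5.77 and 6.93 FPKM in siHHEX 1 and 3, but at 17.4 FPKM in siHHEX 2, or 87.3% of the siNC mean. In siTEAD1/2/3/4, *TEAD4* was at 5.56 FPKM against 20.3 and 21.3 FPKM in siNC, *TEAD1* at 9.02 FPKM against 18.3 and 19.0 FPKM, and *TEAD2* at 2.73 FPKM against 4.10 and 3.47 FPKM. *TEAD3* was not lower in that library, at 9.08 FPKM against 7.36 and 6.99 FPKM. *TEAD1* was also below both siNC values in siHHEX, at 6.99, 10.2 and 5.30 FPKM. In siYAP/TAZ, *HHEX* was at 4.80 and 7.12 FPKM and *TEAD4* at 12.5 and 13.6 FPKM, all below their siNC values.

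The libraries expressed the epithelial genes of the line. Of 8 colorectal epithelial markers, 6 were at 1 FPKM or more in every library, led by the keratin *KRT8*, and their summed level was 3374 and 3517 FPKM in siNC, 3119, 3444 and 3660 FPKM in siHHEX, 2032 and 1977 FPKM in siYAP/TAZ and 2717 FPKM in siTEAD1/2/3/4. *VIL1* stayed near 0 and *CDX1* was listed at 0 in all libraries. Markers of fibroblasts, blood and endothelium summed to between 4.39 and 8.54 FPKM, most of it from *CD68*. The part of the lower epithelial sum of siYAP/TAZ in the results was not tested. FPKM values summed to between 331663 in siYAP/TAZ 1 and 383423 in siHHEX 3, and the spacing of the lowest values placed the relative depth of the libraries between 0.949 and 1.08 times that of siNC 1. The number of reads is unknown, so no floor can be given for a value of 0.

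*UGCG* (ENSG00000148154, chr9:111896814-111935369, plus strand, GENCODE v44 on GRCh38) was well expressed in the control and lower in each knockdown. It was at 25.1 and 24.6 FPKM in siNC, at 6.72, 8.30 and 7.24 FPKM in siHHEX 1, 2 and 3, at 10.5 and 9.45 FPKM in siYAP/TAZ 1 and 2, and at 11.7 FPKM in siTEAD1/2/3/4. The siNC libraries stood highest, the siTEAD1/2/3/4 library came next, and every siHHEX library lay below both siYAP/TAZ libraries. The siNC mean was 24.8 ± 0.337 FPKM (SD, n = 2), that of siHHEX 7.42 ± 0.804 FPKM (SD, n = 3) and that of siYAP/TAZ 9.97 ± 0.744 FPKM (SD, n = 2), so that 29.9%, 40.2% and, in the siTEAD1/2/3/4 library, 47.0% of the control level remained. In log2(FPKM + 1), the differences from siNC were -1.62, -1.24 and -1.03, and those of single knockdown libraries ran from -1.74 in siHHEX 1 to -1.03 in siTEAD1/2/3/4. The difference of siNC 2 from siNC 1 was -0.027 on this scale. Since these differences are what *UGCG* was chosen on, they are a description and carry no test. In siHHEX 2, the library with *YAP1* at 87.3% of its control, *UGCG* was at 33.4% of its own. *TEAD1* was at 54.7% of its control there, and the *UGCG* difference of -1.47 was the smallest decrease among the siHHEX libraries. Whether the level of *YAP1* bears on that of *UGCG* was not tested. As the RNA came from whole cultures, fewer cells with the mRNA and less mRNA per cell cannot be told apart.

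**Figure D1:**
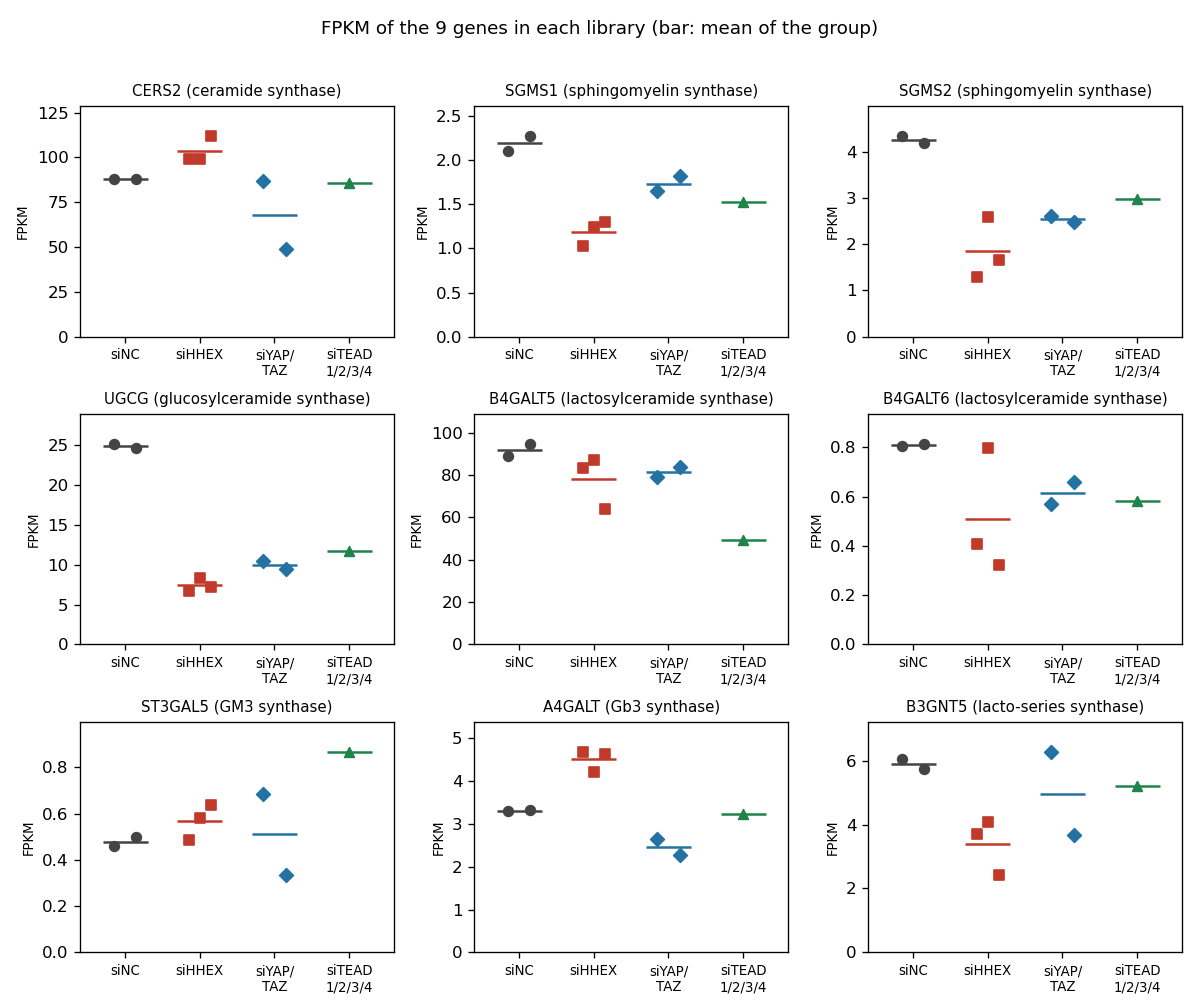
Level of each of the 9 genes in FPKM (vertical axes from 0) in the 8 libraries, with 1 panel for a gene, 1 point for a library and a bar at the mean of each group. *UGCG* is at 24.6 FPKM or above in both siNC libraries and at 11.7 FPKM or below in the 6 knockdown libraries, while *A4GALT* is highest in siHHEX and lowest in siYAP/TAZ.

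Among the ceramide-using neighbours of *UGCG*, the sphingomyelin synthase genes were lower too. *SGMS2* (chr4:107824563-107915047) was at 4.35 and 4.20 FPKM in siNC, at 1.29, 2.59 and 1.67 FPKM in siHHEX, at 2.61 and 2.49 FPKM in siYAP/TAZ and at 2.99 FPKM in siTEAD1/2/3/4. All 6 knockdown libraries lay below both controls, with siHHEX 1 the lowest and siHHEX 2 level with siYAP/TAZ 1. *SGMS2* fell in siHHEX by 0.91 in log2(FPKM + 1) (standard error, SE, 0.18, adjusted p = 0.0094), and in siYAP/TAZ its difference was -0.57 (SE 0.197, adjusted p = 0.0995). *SGMS1* (chr10:50305586-50625163), the lower of the pair, was at 2.11 and 2.27 FPKM in siNC, at 1.03, 1.24 and 1.304 FPKM in siHHEX, at 1.65 and 1.82 FPKM in siYAP/TAZ and at 1.53 FPKM in siTEAD1/2/3/4. Its siHHEX libraries were the lowest of all, with no overlap between siHHEX, siYAP/TAZ and siNC. It fell in siHHEX by 0.54 on that scale (SE 0.122, adjusted p = 0.0133), and its log2 fold change in siYAP/TAZ was -0.22 (adjusted p = 0.310). Both siHHEX calls were lost after a correction for GC content and transcript length, described below. The corrected values were -0.44 for *SGMS2* (adjusted p = 0.102) and -0.22 for *SGMS1* (adjusted p = 0.292). With siNC 1 or siNC 2 left out, the siHHEX adjusted p was 0.102 and 0.0801 for *SGMS2* and 0.120 and 0.123 for *SGMS1*.

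At the branch point, the ratio of FPKM between its arms was highest in siNC. The level of *UGCG* over the sum of *SGMS1* and *SGMS2* was 3.88 and 3.80 in siNC, 2.90, 2.17 and 2.43 in siHHEX, 2.47 and 2.195 in siYAP/TAZ and 2.58 in siTEAD1/2/3/4. The siHHEX and siYAP/TAZ ratios overlapped. As *UGCG* was chosen for being lower in the knockdowns, the lower ratios there are part of that choice and only describe it. *CERS2* (chr1:150960583-150975003), upstream of the branch, was at 87.8 and 87.9 FPKM in siNC, at 98.9, 99.2 and 111.8 FPKM in siHHEX, at 86.6 and 49.1 FPKM in siYAP/TAZ and at 85.6 FPKM in siTEAD1/2/3/4. Only siYAP/TAZ 2 stood apart on the low side, and neither the siHHEX log2 fold change of 0.23 (adjusted p = 0.381) nor the siYAP/TAZ value of -0.42 (adjusted p = 0.244) passed. The siYAP/TAZ value rested on 1 library, since it was -0.83 without siYAP/TAZ 1 (adjusted p = 0.0212) and -0.02 without siYAP/TAZ 2.

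Most of the summed FPKM of the galactosyltransferase genes *B4GALT5* and *B4GALT6* came from *B4GALT5*. *B4GALT5* (chr20:49632945-49713878) was at 89.1 and 94.6 FPKM in siNC, at 83.2, 87.2 and 63.9 FPKM in siHHEX, at 78.9 and 83.8 FPKM in siYAP/TAZ and at 49.4 FPKM in siTEAD1/2/3/4. It made up 98.8% to 99.5% of the summed FPKM of *B4GALT5* and *B4GALT6* in the 8 libraries. Its lowest value was that of siTEAD1/2/3/4, 53.8% of the siNC mean, followed by siHHEX 3. Neither siHHEX (log2 fold change -0.24, adjusted p = 0.196) nor siYAP/TAZ (-0.17, adjusted p = 0.508) passed the test. *B4GALT6* (chr18:31622246-31685836) was at 0.807 and 0.812 FPKM in siNC and between 0.324 and 0.798 FPKM in the knockdowns, and *ST3GAL5* (chr2:85837120-85905199) was between 0.336 and 0.866 FPKM in all libraries. Both were under the filter of 1 FPKM in at least 2 libraries and were not tested.

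The genes of the enzymes that draw on lactosylceramide had values on both sides of the control. *A4GALT* (chr22:42692121-42721298) was at 3.29 and 3.31 FPKM in siNC, at 4.67, 4.20 and 4.63 FPKM in siHHEX, at 2.65 and 2.27 FPKM in siYAP/TAZ and at 3.23 FPKM in siTEAD1/2/3/4. Every siHHEX library was above the controls and every siYAP/TAZ library below them. Against siNC, neither difference passed the adjustment, at 0.35 in siHHEX (SE 0.122, adjusted p = 0.0506) and -0.32 in siYAP/TAZ (SE 0.134, adjusted p = 0.161). *B3GNT5* (chr3:183253253-183298504) was at 6.06 and 5.75 FPKM in siNC, at 3.70, 4.06 and 2.43 FPKM in siHHEX, at 6.26 and 3.66 FPKM in siYAP/TAZ and at 5.22 FPKM in siTEAD1/2/3/4. The siHHEX libraries lay below the controls, whereas the siYAP/TAZ libraries fell on either side of them. *B3GNT5* fell by 0.67 in siHHEX (SE 0.217, adjusted p = 0.0422), a call that was lost without siHHEX 1 (adjusted p = 0.0732), siHHEX 3 (adjusted p = 0.0994), siNC 1 (adjusted p = 0.202) or siNC 2 (adjusted p = 0.154). The siHHEX call of *B3GNT5* was also lost after the correction for GC content and transcript length (-0.18, adjusted p = 0.590). Its siYAP/TAZ log2 fold change was -0.25 (adjusted p = 0.542), and 0.074 without siYAP/TAZ 2.

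Of the 9 genes, 7 passed the filter, and 6 without *UGCG* were tested against siNC. In siHHEX, 3 of these 6 fell (*SGMS1*, *SGMS2* and *B3GNT5*) and 0 rose, where 32.9% of the 10677 tested genes were called, 16.9% lower and 16.0% higher. This count of 3 was 0 without siNC 1 or without siNC 2. In siYAP/TAZ, 0 of the 6 were called by limma, with 2 at an unadjusted p under 0.05, where 8.28% of all tested genes were called, 2.13% lower and 6.15% higher. In the siTEAD1/2/3/4 library, which has no replicate, 1 of the same 6 was more than 1.5-fold below the siNC mean on the log2(FPKM + 1) scale, *B4GALT5* at -0.88, where 2.18% of tested genes were lower and 4.15% higher by that much. *UGCG*, at -1.03, was chosen on this value and is not counted. The other 5 were between -0.40 for *SGMS2* and -0.02 for *A4GALT*. All 6 knockdown libraries lay below both siNC libraries for 3 of the 6, *SGMS1*, *SGMS2* and *B4GALT5*, an arrangement shared by 10.3% of tested genes. These comparisons share their siNC libraries.

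The siHHEX libraries carried a broad trend that touches the counts above. Across 10617 tested genes, the change of a gene from siNC rose with the GC content of its transcript, with Spearman coefficients of 0.679, 0.598 and 0.755 in siHHEX 1, 2 and 3, against 0.0601 and -0.0518 in siYAP/TAZ, 0.298 in siTEAD1/2/3/4 and 0.211 for siNC 2 against siNC 1. The genes lie along this range. The median GC content of tested genes was 49.1%. *B3GNT5* transcripts hold 35.7% GC, *SGMS2* 37.8%, *UGCG* 40.4% and *SGMS1* 42.4%, and these were the genes lowest in siHHEX. *B4GALT5* holds 48.0%, *CERS2* 52.0% and *A4GALT*, the highest in siHHEX, 64.2%.

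**Figure D2:**
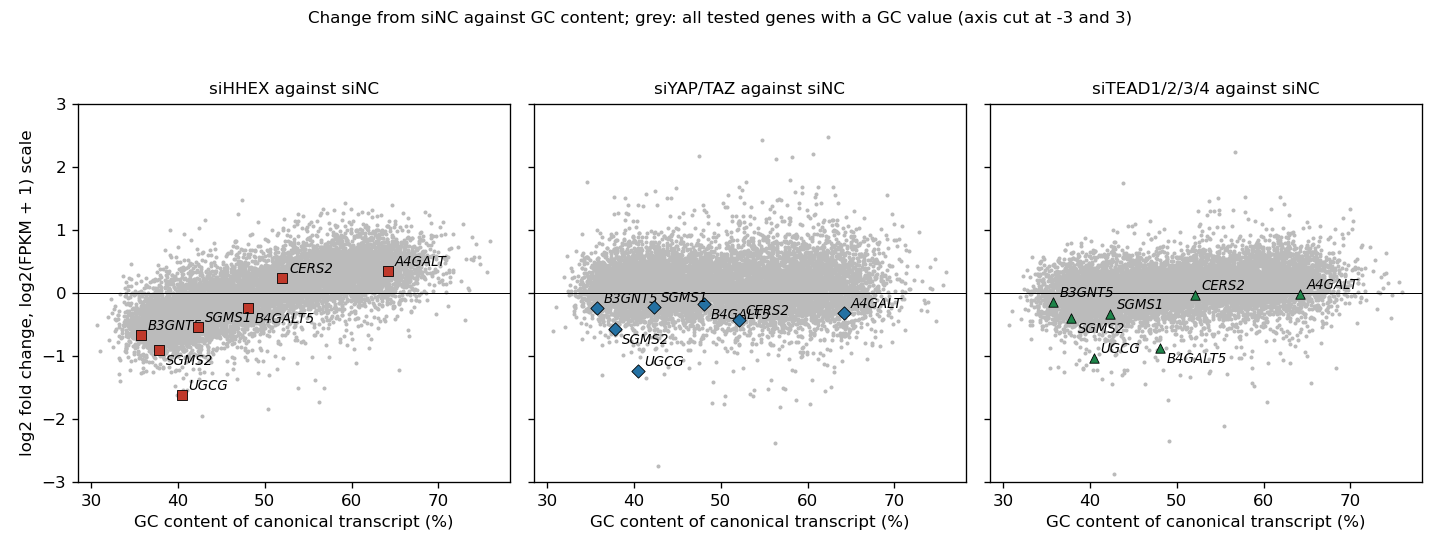
Log2 fold change from siNC on the log2(FPKM + 1) scale (vertical axis) against GC content of the canonical transcript in percent (horizontal axis) for siHHEX, siYAP/TAZ and siTEAD1/2/3/4, with all tested genes in grey and the 7 genes above the filter marked. In siHHEX the grey cloud rises with GC content (Spearman 0.73) and most marked genes lie in it, with *UGCG* below it, while in siYAP/TAZ the cloud is flat.

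When each library was corrected for its trend on GC content and transcript length, *UGCG* was still lower in all 6 knockdown libraries and the other calls in siHHEX were lost. The corrected differences of *UGCG* from siNC were -1.34, -1.22 and -1.14 in siHHEX, -1.13 and -1.32 in siYAP/TAZ and -0.92 in siTEAD1/2/3/4, so that the siHHEX and siYAP/TAZ values overlapped. *SGMS2* was at -0.44 in siHHEX (adjusted p = 0.102) and -0.59 in siYAP/TAZ (adjusted p = 0.0454) once corrected, and was the 1 gene of the 6 called after correction. *SGMS1* was at -0.22 in siHHEX (adjusted p = 0.292) and *B3GNT5* at -0.18 (adjusted p = 0.590). *A4GALT* changed sign in siHHEX, to -0.07 (adjusted p = 0.739). In siHHEX, 0 of the 6 were called by limma after correction, with 1 at an unadjusted p under 0.05, where 6.13% of all genes were called. In siYAP/TAZ, 12.5% of all genes were called after correction. *B4GALT5* in siTEAD1/2/3/4 was at -0.87 after correction, against -0.88 before.

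**Figure D3:**
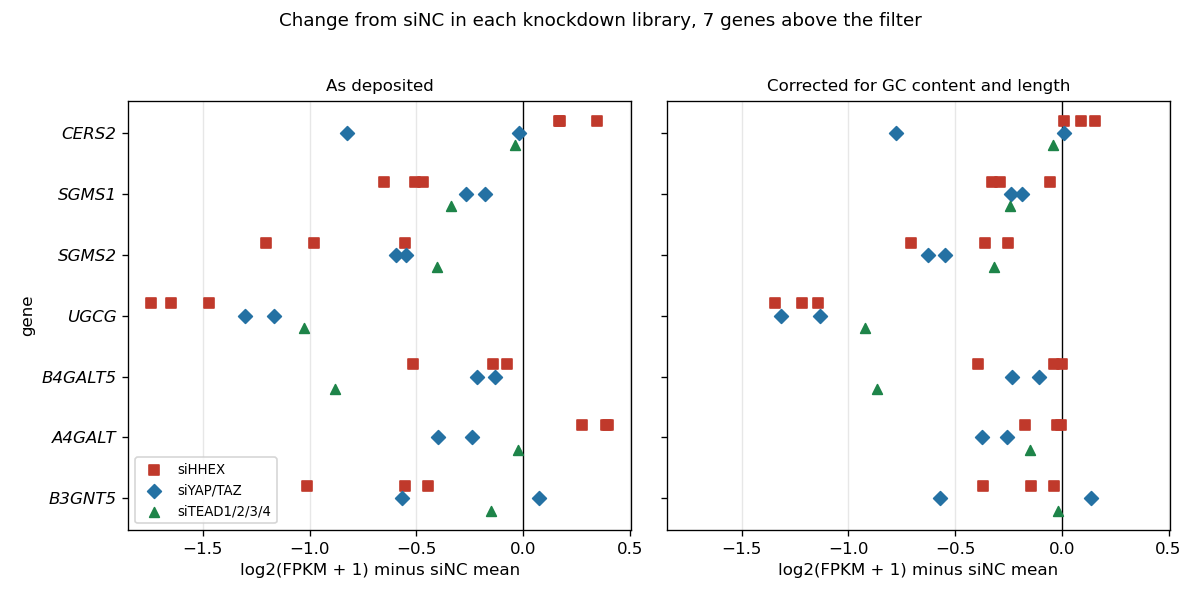
Difference of each knockdown library from the siNC mean in log2(FPKM + 1) (horizontal axis), as deposited (left) and after the GC and length correction (right), for the 7 genes above the filter, with 1 point for a library. The siHHEX points of *SGMS1*, *SGMS2* and *B3GNT5* move towards 0 on the right and those of *A4GALT* cross it, whereas all *UGCG* points stay at -0.92 or below.

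The siHHEX and siYAP/TAZ libraries were also compared with each other, a difference that leaves out the siNC levels, although siNC still adds to the estimate of the spread. Of the 6 genes beside *UGCG*, *A4GALT* and *CERS2* were called higher in siHHEX and 0 lower by limma, with 3 of the 6 at an unadjusted p under 0.05, where 39.3% of tested genes were called, 25.9% lower and 13.5% higher in siHHEX. *A4GALT* had a log2 fold change of 0.67 (SE 0.122, adjusted p = 0.0058), and its lowest siHHEX value, 4.20 FPKM, was above its highest siYAP/TAZ value, 2.65 FPKM. *CERS2* was at 0.65 (SE 0.2, adjusted p = 0.03004), a call lost without siYAP/TAZ 2 (0.25, adjusted p = 0.211), siHHEX 1 (adjusted p = 0.0623) or siHHEX 3 (adjusted p = 0.0753). The siHHEX and siYAP/TAZ values of *UGCG* entered its choice, so its difference of -0.39 between them is a description with no test, and it was -0.01 after the GC and length correction. With that correction, *A4GALT* was at 0.25 (adjusted p = 0.163) and *CERS2* at 0.47 (adjusted p = 0.137), with 0 of the 6 called by limma and 2 at an unadjusted p under 0.05, where 8.87% of all genes were called. The other 4 genes did not pass as deposited, with log2 fold changes of -0.42 for *B3GNT5*, -0.34 for *SGMS2*, -0.32 for *SGMS1* and -0.07 for *B4GALT5*, of which those of *B3GNT5*, *SGMS2* and *B4GALT5* turned positive after correction.

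The wider sphingolipid pathway was followed in 6 further gene lists with 87 genes, of which 62 passed the filter. In siHHEX, 10 of the 62 fell, 5 rose and 47 did not pass, where 32.9% of all tested genes were called, 16.9% lower and 16.0% higher, with a median log2 fold change of 0.11 against -0.01 over all tested genes. The 15 calls were 0 without siNC 1 or siNC 2, 23 without siHHEX 2 and 7 without siHHEX 3. In siYAP/TAZ, 0 of the 62 were called by limma, with 11 at an unadjusted p under 0.05, where 8.28% of all tested genes were called, and their median was 0.11 against 0.08 over all tested genes. After the correction, 0 of the 62 were called in siHHEX by limma, with 9 at an unadjusted p under 0.05. Of all genes, 6.13% were called there. In siYAP/TAZ, 1 of the 62 was called after the correction, where 12.5% of all genes were called. It was *ACER2*, an alkaline ceramidase gene named after its value was seen, at 0.45 (adjusted p = 0.0479). In siTEAD1/2/3/4, 3 of the 62 were more than 1.5-fold above siNC, *B4GALT1*, *FUT2* and *GBA2*, also named after their values were seen, where 4.15% of all tested genes were that much higher. After the correction, *GBA2* was at 0.52 and no longer past 1.5-fold, and *B4GALT3*, at -0.59, was lower by more than that.

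The counts of the single lists in siHHEX are to be read against the 32.9% of all tested genes called there. Of 11 tested ceramide synthesis genes, 1 fell and 1 rose in siHHEX and 9 did not pass. *CERS6*, a ceramide synthase gene for long acyl chains, fell by 0.65 (adjusted p = 0.0197), with 3.64, 5.83 and 4.38 FPKM in siHHEX against 7.80 and 7.58 FPKM in siNC, and *CERS4*, another ceramide synthase gene, rose by 0.37 (adjusted p = 0.0468). Of 4 transfer genes, 1 fell in siHHEX, *COL4A3BP*, now named *CERT1*, whose product carries ceramide to the Golgi for sphingomyelin synthesis. It was at 5.89 and 5.43 FPKM in siNC, at 3.84, 3.66 and 2.97 FPKM in siHHEX and at 7.30 and 5.87 FPKM in siYAP/TAZ (siHHEX log2 fold change -0.57, adjusted p = 0.0183). Thus its siHHEX libraries alone lay below the controls among the replicated knockdowns.

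Of 7 nucleotide sugar supply genes, 3 fell in siHHEX. *UGP2*, which makes the UDP-glucose used by *UGCG*, was at 11.2 FPKM in each siNC library, at 5.56, 7.57 and 6.24 FPKM in siHHEX and at 13.4 and 13.6 FPKM in siYAP/TAZ. It fell by 0.72 in siHHEX (adjusted p = 0.0088), and had a log2 fold change of 0.25 in siYAP/TAZ (adjusted p = 0.313). *SLC35A1*, the Golgi carrier of CMP-sialic acid, fell by 0.47 (adjusted p = 0.0370), and *CMAS*, which makes CMP-sialic acid, also fell. Against siYAP/TAZ, 13 of the 62 genes were lower in siHHEX and 4 higher as deposited, where 39.3% of tested genes were called, 25.9% lower and 13.5% higher. After the correction, 4 were called lower and 0 higher by limma, with 10 at an unadjusted p under 0.05, where 8.87% of all genes were called in either direction. They were *UGP2*, *COL4A3BP*, *CMAS* and *ACER2*, with *UGP2* at -0.67 (adjusted p = 0.0191) and *COL4A3BP* at -0.53 (adjusted p = 0.0382).

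Of 15 other glycosyltransferase genes, 1 fell in siHHEX, *UGT8*, which makes galactosylceramide (-0.45, adjusted p = 0.0265), 1 rose, the sialyltransferase gene *ST3GAL2* (0.56, adjusted p = 0.0170), and 13 did not pass. Of 13 turnover genes, 3 fell and 2 rose in siHHEX. *SAMD8*, the gene of a sphingomyelin synthase relative, fell by 0.64 (adjusted p = 0.0127), the ceramidase gene *ACER3* fell by 0.56 (adjusted p = 0.0433), and the sphingomyelinase gene *SMPD2* rose by 0.74 (adjusted p = 0.0152). *ACER2* also fell and the sphingosine kinase gene *SPHK2* rose. These and *CMAS* complete the counts and were named after their values were seen.

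**Figure D4:**
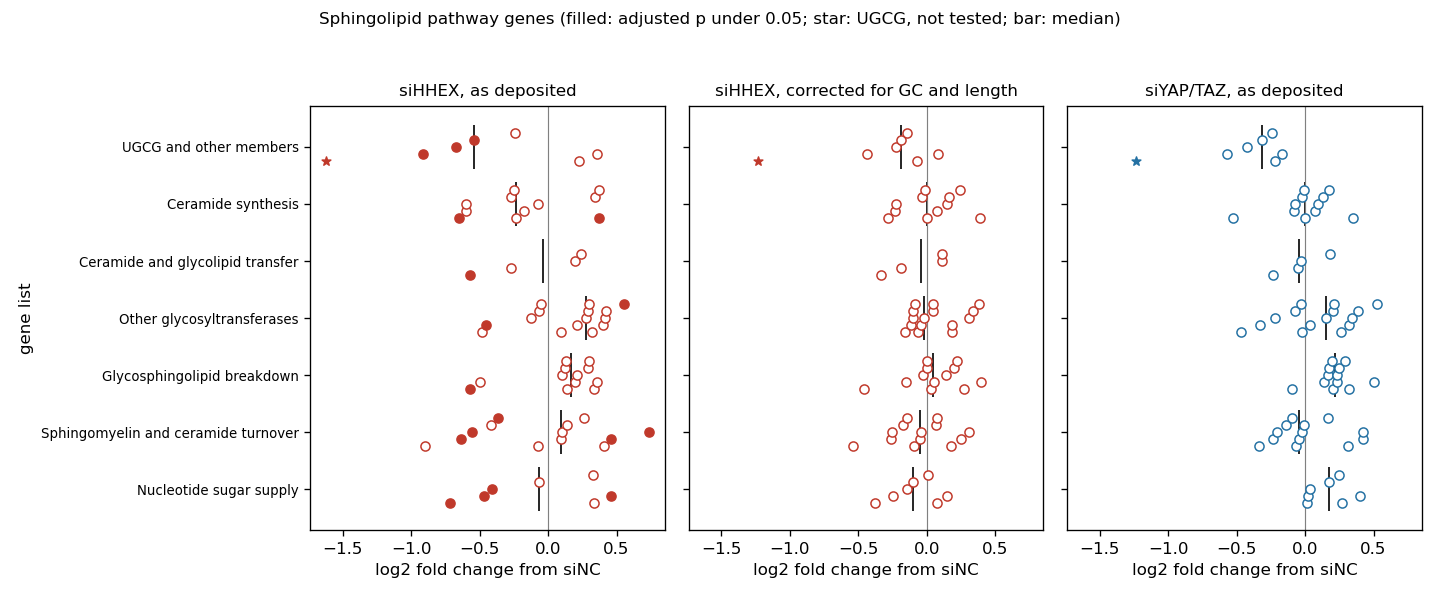
Log2 fold change from siNC (horizontal axis) of each tested gene in the 7 gene lists (rows) in siHHEX as deposited, siHHEX after the GC and length correction, and siYAP/TAZ as deposited, with a point for a gene, filled where the adjusted p was under 0.05, a star for *UGCG*, which was not tested, and a bar at the median of the list. Filled points on both sides of 0 in the first panel are gone in the second, and the third panel has none.

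The genes whose levels followed *UGCG* most closely over the 8 libraries were taken by Pearson correlation of log2(FPKM + 1), as a description of 4 groups rather than of 8 separate points. The highest were *RRP15* (r = 0.991), *IQCJ-SCHIP1* (0.984), *SMAD3* (0.982), *NCL* (0.977), *NFX1* (0.976), *RRP1B* (0.973), *KNSTRN* (0.971) and *DYNC1LI1* (0.971). After the GC and length correction, r stayed at 0.978 for *SMAD3*, a signal transducer of TGF-beta receptors, 0.969 for *NFX1*, 0.948 for *NCL*, the gene of nucleolin, 0.928 for *IQCJ-SCHIP1*, 0.910 for *RRP1B* and 0.880 for *KNSTRN*, and was 0.484 for *DYNC1LI1* and 0.283 for *RRP15*. *SMAD3* had a mean of 11.98 FPKM in siNC, 5.49 FPKM in siHHEX, 6.14 FPKM in siYAP/TAZ and 7.89 FPKM in siTEAD1/2/3/4. Of the 9 genes, 6 beside *UGCG* passed the filter and were compared with it. Among these 6, *SGMS2* (r = 0.930, and 0.877 after correction) and *SGMS1* (0.899 and 0.778) were nearest to *UGCG*. *B3GNT5* (0.729 and 0.411), *B4GALT5* (0.329 and 0.214), *CERS2* (-0.109 and 0.227) and *A4GALT* (-0.360 and 0.518) followed.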

How the data were processed

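RNA-seq of 8 HCT-116 libraries was used. Trizol RNA was sequenced by the authors on an Illumina HiSeq instrument, and for each library they deposited gene values in FPKM. The submitters' processing notes name Trimmomatic 0.36, HISAT2 2.0.5, Cufflinks 2.2.1 and HTSeq 0.9.1. The build and annotation of the RNA-seq are not given in the sources used here, and symbols were matched to GENCODE v44 (18724 of 20030 rows by symbol, 557 by an older symbol). Groups came from the labels. The members and lists were chosen with earlier results of these data known.

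The 10677 genes that reached 1 FPKM in 2 or more libraries were tested on log2(FPKM + 1), which understates changes of low genes, with limma 3.58.1 in R 4.3.3, in 1 fit of all 8 libraries with 4 groups and a variance trend. The siTEAD1/2/3/4 library has no replicate and no p-value. P-values were adjusted over all tested genes (Benjamini-Hochberg) and called under 0.05. For the GC and length correction, each library's log2 difference from the mean library was fitted with natural splines (4 degrees of freedom) on transcript GC content and log length (10617 genes, 99.4%). Other steps used Python 3.11.15, pandas 2.3.3 and scipy 1.17.1. Named genes were the members, the siRNA targets, up to 3 called genes of each list with the largest change, and the 8 genes most like *UGCG*. The tests were tried on simulated data. The alternatives were the replicate number as a block, another pseudocount, no filter, a fit limited to the compared groups, the correction, median scaling and leaving out each siNC, siHHEX or siYAP/TAZ library in turn. Promoter sequences came from RefSeq (7 of 9 genes matched). Single results for some listed pathway genes are not reported here. ChIP-seq data were not analysed here.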

Additional observations from a re-analysis of the deposited data

How the results depend on the processing

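*UGCG* was below siNC in each knockdown under all alternatives run. Its log2 difference was -1.62 in siHHEX, and -1.23 after the GC and length correction and -1.28 with the replicate block added to it; in siYAP/TAZ it was -1.24, and -1.33 with median scaling; in siTEAD1/2/3/4 it was -1.03, and -1.08 with a pseudocount of 0.1, -0.92 after the correction and -1.09 with median scaling. Leaving out 1 library gave -1.70 to -1.56 in siHHEX, -1.30 to -1.17 in siYAP/TAZ and -1.04 to -1.02 in siTEAD1/2/3/4.

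The counts moved more. In siHHEX, 3518 genes were called, 1907 with no filter, 2062 with the replicate block, 651 after the correction, 155 with both, and 19 to 4839 with 1 library left out. The lowest, 19 and 27, came without siNC 1 or siNC 2, where the lone control is assumed to vary like the other groups, and 2109 were called without siHHEX 1. In siYAP/TAZ, 884 genes were called, 320 with no filter, 1759 with only the groups compared, 1328 after the correction, and 15 to 1317 with 1 library left out (22 without siNC 1, 15 without siNC 2, 92 without siYAP/TAZ 2). Between siHHEX and siYAP/TAZ, 4200 were called, 942 after the correction, 274 with the block added, and 1026 (without siYAP/TAZ 2) to 5161 with 1 library left out. Of the 6 genes tested beside *UGCG*, 3 were called in siHHEX, 0 after the correction with or without the block and 0 to 4 with 1 library left out, and 0 in siYAP/TAZ, 1 (*SGMS2*) with only the groups compared or after the correction, 0 after the correction with the block (*SGMS2* adjusted p = 0.0627) and 0 to 1 with 1 library left out. Between the knockdowns, 2 of the same 6 were called, 1 with no filter, 1 with the block, 0 after the correction with or without the block and 1 (without siHHEX 1, siHHEX 3 or siYAP/TAZ 2) to 3 with 1 library left out, a count that leaves out *UGCG* and was chosen after seeing the data. Of the 62 pathway genes in siHHEX, 15 were called, 5 with no filter, 7 with the block, 0 after the correction with or without the block and 0 to 23 with 1 library left out. In siYAP/TAZ the count was 0, and 1 after the correction.

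*A4GALT* in siHHEX turned to -0.067 after the correction and -0.015 with the block added. *B3GNT5* in siYAP/TAZ ran from -0.57 to 0.074 with 1 library left out, positive without siYAP/TAZ 2. Between siHHEX and siYAP/TAZ, *SGMS2* turned to 0.15 after the correction and 0.11 with the block added, *B3GNT5* to 0.034 and 0.13, and *B4GALT5* to 0.027 and 0.15, and also to 0.066 with the block and 0.042 with median scaling, and it ran from -0.16 to 0.066 (without siHHEX 3) with 1 library left out. The cause was not tested. Of the other values for single genes beside *UGCG*, 208 stayed on their side of the threshold, 25 lost and 7 gained a call.

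Libraries with the same replicate number did not deviate together (correlations of deviations from group means between -0.0704 and 0.0215). In groups of 2 libraries the deviations mirror each other, and in siHHEX and siYAP/TAZ the number also marks the siRNA. These correlations therefore cannot show whether libraries with the same number shared a culture or a run. Depth is unknown, which limits what low genes such as *B4GALT6* can show.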
